A study of Homo sapiens with 4 samples.

Results

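A set of 10 genes of the response to low oxygen was followed in HepG2, a human hepatocellular carcinoma cell line. They were HIF1A, which encodes the oxygen-regulated subunit of hypoxia-inducible factor (HIF), and 9 genes known as HIF targets outside glycolysis, chosen by gene symbol (ADM, NDRG1, CA9, VEGFA, BNIP3, EGLN3, ANKRD37, P4HA1 and EGLN1). All 10 were among the 24462 gene symbols counted. The cells had been treated with DMSO (the solvent control), treated with PD-0332991 (an inhibitor of the CDK4 and CDK6 kinases), transfected with scrambled siRNA as a control (SC), or transfected with siCDK4 and siCDK6 (CDK4-6-KD). Each condition was sequenced as 1 QuantSeq library, in which reads come from the 3′ ends of polyadenylated transcripts. All 4 libraries came from the same line grown in RPMI with fetal bovine serum, and the sources used here describe no low-oxygen exposure and give neither the dose nor the times for the sequenced cells. With a single library for each condition there are no replicates, and differences are therefore given without p-values.

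HIF is a pair of proteins, an alpha subunit (HIF1A or EPAS1) and ARNT. When oxygen is plentiful, the EGLN enzymes hydroxylate the alpha subunit, the VHL ubiquitin ligase binds it and it is destroyed. When oxygen is scarce, the subunit persists, enters the nucleus and switches on genes for glycolysis, blood vessel growth, pH control, mitochondrial turnover and collagen modification. HIF activity is therefore set largely by protein stability, which a count of mRNA does not measure. In bulk RNA, fewer cells that express a gene and less RNA per cell cannot be told apart.

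The libraries held between 8983848 and 11176880 reads, with 12780 to 13257 genes at 10 reads or more. Levels are given as CPM, the reads of a gene scaled to a common library size and corrected with TMM factors, which ran from 0.957 to 1.03. Intervals are 95% intervals of counting error only, Poisson for a level and Clopper-Pearson for a fold change. PCR copies are not accounted for. Both siRNA targets were reduced in CDK4-6-KD, with a CDK4 level of 71.9 CPM against 354 in SC (fold change: 0.203, interval 0.188 to 0.219) and a CDK6 level of 129 CPM against 536 (fold change: 0.241, interval 0.228 to 0.256). The 3′ end of CDK4 overlaps TSPAN31 on the opposite strand. All 12 hepatocyte markers examined had at least 10 reads in every library, and their summed level ran from 20327 CPM in DMSO to 26362 CPM in CDK4-6-KD. Endothelial markers, examined because VEGFA acts on such cells, had at most 6 reads in all per library, with 3 or 4 of the 5 genes at 0.

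Promoter sequences were examined because HIF binds DNA at a short core motif, read here as ACGTG or GCGTG on either strand. The RefSeq promoter table (GRCh38.p14) held 8 of the 10 genes, without VEGFA and NDRG1. In the 250 bases before the RefSeq start, 7 of these 8 genes had a match (HIF1A at the upstream of its listed starts), EGLN3 being the other. By the gene positions of GENCODE 29, these bases lie inside the gene for ADM, ANKRD37, EGLN1 and EGLN3. For CA9, BNIP3 and P4HA1 they lie partly inside. A match was also present in 43.2% of all 35116 promoters, so that these letters alone are common. ADM and ANKRD37 are shown because their levels moved, and BNIP3 because it had the most matches, 6, against 3 in ANKRD37 and 1 in ADM. Promoters with 3 or more matches were 7.76% of the total. Matches to both strands at the same place (CACGTG) count as 2. The sequences run from 5′ to 3′ on the strand of the gene and end at the base before the start, with every match in capitals. They lie at chr11:10304823-10305072 (plus strand) for ADM, chr4:185396591-185396840 (plus strand) for ANKRD37 and chr10:131981924-131982173 (minus strand) for BNIP3.
ADM: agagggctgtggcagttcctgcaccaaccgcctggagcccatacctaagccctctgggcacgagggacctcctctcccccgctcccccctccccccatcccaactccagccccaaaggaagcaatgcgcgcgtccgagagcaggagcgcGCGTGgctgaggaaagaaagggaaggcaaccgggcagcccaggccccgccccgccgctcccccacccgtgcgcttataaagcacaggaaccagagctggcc
ANKRD37: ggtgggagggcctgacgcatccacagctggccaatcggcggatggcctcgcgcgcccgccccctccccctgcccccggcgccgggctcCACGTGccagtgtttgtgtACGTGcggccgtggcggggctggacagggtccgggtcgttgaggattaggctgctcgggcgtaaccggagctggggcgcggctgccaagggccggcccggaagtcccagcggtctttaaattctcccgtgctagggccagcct
BNIP3: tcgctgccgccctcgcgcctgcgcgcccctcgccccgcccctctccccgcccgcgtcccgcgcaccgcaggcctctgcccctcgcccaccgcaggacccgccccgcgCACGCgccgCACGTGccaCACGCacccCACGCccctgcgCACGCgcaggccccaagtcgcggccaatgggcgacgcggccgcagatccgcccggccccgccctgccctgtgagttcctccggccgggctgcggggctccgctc

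HIF1A mRNA was lowest in the CDK4-6-KD library. Its gene spans bases 61695513 to 61748259 of chromosome 14, plus strand (GRCh38, GENCODE 29; the deposited counts carry symbols only, and the processing notes name hg19). It had 79.9 CPM in DMSO, 63.8 in PD-0332991, 65.2 in SC and 26.5 in CDK4-6-KD, from 730, 581, 698 and 300 reads. The interval of the CDK4-6-KD level lay under those of the other libraries. The fold change was 0.407 (interval 0.354 to 0.466) in CDK4-6-KD over SC and 0.332 (interval 0.289 to 0.380) over DMSO. After PD-0332991 it was 0.799 (interval 0.715 to 0.892) over DMSO, but 0.978 (interval 0.875 to 1.09) over SC, since SC itself was lower than DMSO (fold change: 0.817). The antisense transcript HIF1A-AS2 is annotated in RefSeq over the 3′ end of HIF1A on the opposite strand. Its reads were 90.7%, 90.5%, 84.0% and 90.7% of those of HIF1A in DMSO, PD-0332991, SC and CDK4-6-KD, and its fold change in CDK4-6-KD over SC was 0.439 (interval 0.379 to 0.508). Whether the authors counted by strand is not stated in the sources used here, so the reads of HIF1A and HIF1A-AS2 cannot be told apart.

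Of the oxygen-sensing hydroxylases, EGLN1 was slightly higher in CDK4-6-KD and EGLN3 was barely detected. EGLN1, the main enzyme that marks HIF alpha subunits for destruction, had 33.4 CPM in DMSO, 31.6 in PD-0332991, 32.7 in SC and 40.6 in CDK4-6-KD. Its fold change in CDK4-6-KD was 1.24 (interval 1.08 to 1.43) over SC and 1.22 (interval 1.05 to 1.41) over DMSO. After PD-0332991 the interval included 1 (fold change: 0.948, interval 0.804 to 1.12). EGLN3, a hydroxylase that is itself strongly induced by HIF in many cells, had 8 reads in DMSO, 9 in PD-0332991, 9 in SC and 14 in CDK4-6-KD. At this depth no difference in EGLN3 was detectable (fold change in CDK4-6-KD over SC: 1.45, interval 0.593 to 3.85).

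**Figure D1:**
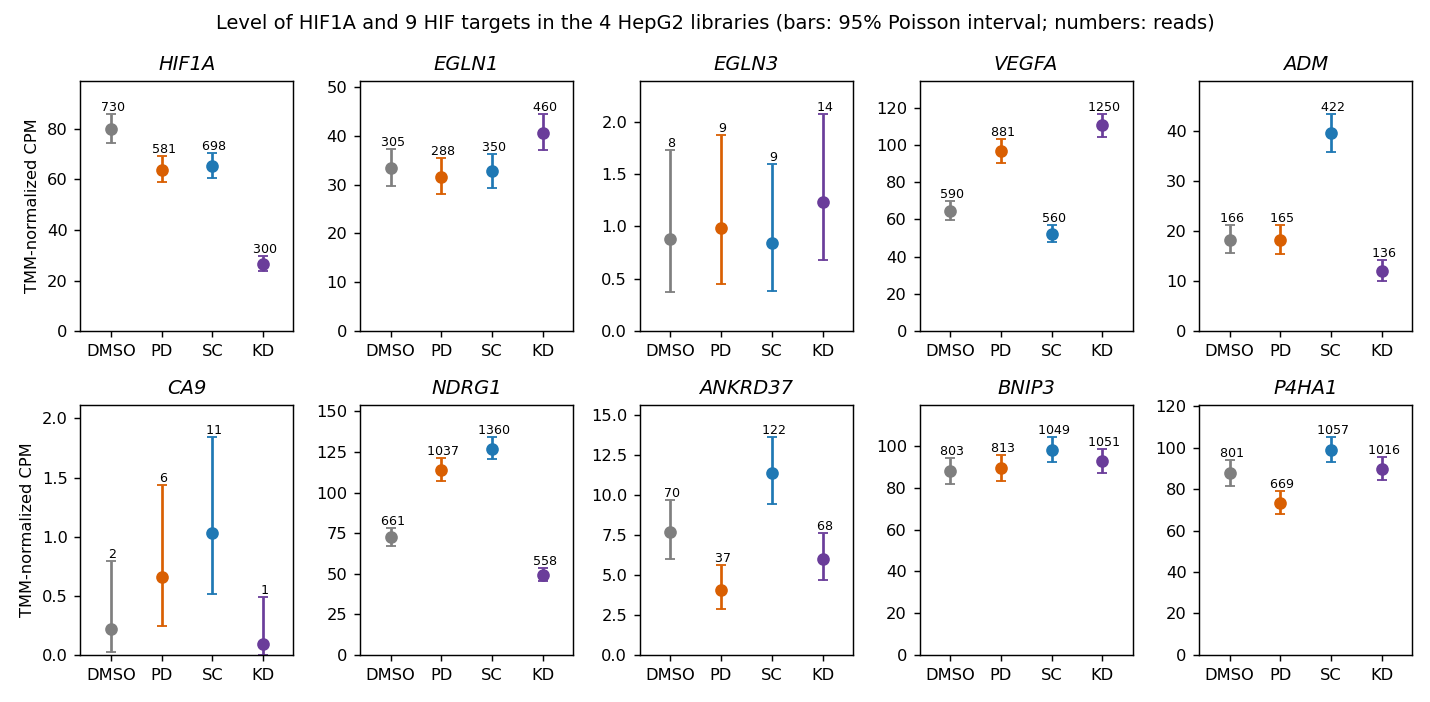
TMM-normalized level in CPM (y axis, linear from 0, own scale per gene) of HIF1A and 9 HIF targets in the 4 libraries (x axis; PD is PD-0332991, KD is CDK4-6-KD). Points are single libraries, bars 95% Poisson intervals, and numbers the reads. HIF1A, ADM and NDRG1 were lowest in CDK4-6-KD, VEGFA was highest there, and BNIP3 ranged only from 87.9 to 98.0 CPM.

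VEGFA, the main growth factor for blood vessels, was higher in both inhibited libraries. The gene, at bases 43770184 to 43786487 of chromosome 6 (GRCh38), had 64.6 CPM in DMSO, 96.8 in PD-0332991, 52.3 in SC and 110.4 in CDK4-6-KD. No interval overlapped another, so that the order from CDK4-6-KD through PD-0332991 and DMSO to SC was resolved beyond counting error at each step. The fold change was 2.11 (interval 1.91 to 2.34) in CDK4-6-KD over SC and 1.5 (interval 1.35 to 1.67) in PD-0332991 over DMSO. With the controls exchanged, both remained above 1, at 1.71 (interval 1.55 to 1.89) for CDK4-6-KD over DMSO and 1.85 (interval 1.66 to 2.06) for PD-0332991 over SC.

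ADM, which encodes the vasodilator peptide adrenomedullin, stood out in the SC library. It had 18.2 CPM in DMSO, 18.1 in PD-0332991, 39.4 in SC and 12 in CDK4-6-KD. The interval of PD-0332991 over DMSO included 1 (fold change: 0.997, interval 0.799 to 1.24), SC was 2.17-fold higher than DMSO (interval 1.81 to 2.61), and CDK4-6-KD was lowest. The CDK4-6-KD fold change was 0.305 (interval 0.249 to 0.370) over SC and 0.662 (interval 0.523 to 0.835) over DMSO, lower against either control but by different amounts.

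NDRG1, a stress-responsive gene on chromosome 8 whose product is linked to differentiation, went in opposite directions in the 2 arms. It had 72.3 CPM in DMSO, 114 in PD-0332991, 127 in SC and 49.3 in CDK4-6-KD. PD-0332991 was above its control (fold change: 1.57, interval 1.43 to 1.74), and CDK4-6-KD was below its own (fold change: 0.388, interval 0.351 to 0.428). SC was already 1.76-fold above DMSO (interval 1.60 to 1.93). Over DMSO, CDK4-6-KD was still lower (fold change: 0.682, interval 0.608 to 0.764), whereas PD-0332991 over SC was 0.896 (interval 0.826 to 0.972).

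CA9 and ANKRD37 rested on few reads. CA9, a membrane carbonic anhydrase that controls pH and is often used as a marker of hypoxia, had 2 reads in DMSO, 6 in PD-0332991, 11 in SC and 1 in CDK4-6-KD. The level was near 1 CPM or less in every library, and the fold change of 0.12 in CDK4-6-KD over SC had an interval of 0.0020 to 0.591. CA9 passed the read filter in that comparison only through SC. ANKRD37, a small ankyrin-repeat protein, had 70 reads in DMSO, 37 in PD-0332991, 122 in SC and 68 in CDK4-6-KD, or 7.66, 4.06, 11.4 and 6.01 CPM. Its fold changes were close in both arms, at 0.529 (interval 0.386 to 0.715) in CDK4-6-KD over SC and 0.534 (interval 0.346 to 0.801) in PD-0332991 over DMSO. Over DMSO the interval of CDK4-6-KD included 1 (fold change: 0.786, interval 0.553 to 1.11), while PD-0332991 over SC was 0.359 (interval 0.240 to 0.519). The 3′ end of ANKRD37 overlaps UFSP2 on the opposite strand, which had 284 to 483 reads per library.

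BNIP3 had the narrowest range of the set, and P4HA1 was lowest after PD-0332991. BNIP3, a receptor that marks mitochondria for removal, had 87.9 CPM in DMSO, 89.3 in PD-0332991, 98.0 in SC and 92.8 in CDK4-6-KD. BNIP3 also had the most matches to the motif in its promoter above, and a link between matches and level was not tested. Its fold change was 0.947 (interval 0.869 to 1.03) in CDK4-6-KD over SC, or 1.02 with total counts alone, and 1.02 (interval 0.920 to 1.12) in PD-0332991 over DMSO. GENCODE 29 names 39 pseudogenes of BNIP3, which makes its count less certain. P4HA1, a subunit of the enzyme that hydroxylates collagen, had 87.7 CPM in DMSO, 73.5 in PD-0332991, 98.8 in SC and 89.8 in CDK4-6-KD. Its highest level was 1.34 times its lowest. PD-0332991 was below both DMSO (fold change: 0.838, interval 0.755 to 0.93) and SC (fold change: 0.744, interval 0.674 to 0.820), and CDK4-6-KD was close to its control (fold change: 0.909, interval 0.833 to 0.991), where total counts alone gave 0.977 (interval 0.895 to 1.07) and DMSO as the control 1.02.

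**Figure D2:**
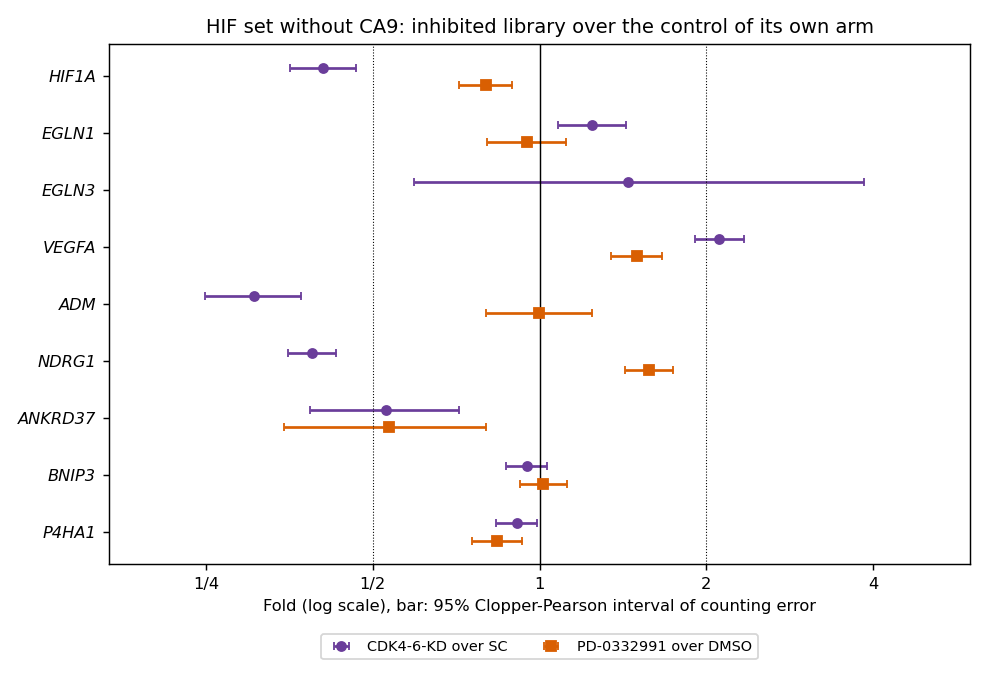
Fold change (x axis, log scale) of each gene of the set except CA9, with 95% Clopper-Pearson intervals of counting error, for CDK4-6-KD over SC (circles) and PD-0332991 over DMSO (squares). Dotted lines mark 2-fold. VEGFA lay to the right of 1 in both arms and ANKRD37 to the left in both, while NDRG1 lay on opposite sides. EGLN3 after PD-0332991 is not drawn because it was under the read filter.

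Over the set, 4 of the 10 genes (HIF1A, ADM, NDRG1 and CA9) had a CDK4-6-KD level no more than 0.5 of that in SC, which is 2-fold lower or beyond, and VEGFA was the 1 gene 2-fold higher or beyond. Among the 13617 genes that reached 10 reads in CDK4-6-KD or SC, 7.62% were at least 2-fold lower and 9.19% at least 2-fold higher. CA9 passed the filter only through SC, and without it 3 of 9 genes were 2-fold lower. On the log2 scale the median of the 10 was -0.53, beside -0.0036 for all genes. It was -0.14 without CA9 and -0.53 without CA9 and EGLN3, so it depends on which genes are counted. The 2 middle values, ANKRD37 (-0.92) and P4HA1 (-0.14), lie far apart. An interval that left out 1 was found for 8 of the 10 genes and for 61.9% of all genes, with 6 of the 10 under 1 (31.9% of all genes) and 2 over 1 (30% of all genes). After PD-0332991, none of the 8 genes past the filter (CA9 and EGLN3 were not) reached 2-fold in either direction over DMSO. Of 13443 genes, 7.06% were 2-fold lower and 7.49% 2-fold higher. The intervals of 5 of the 8 left out 1 (3 lower, HIF1A, ANKRD37 and P4HA1, and 2 higher, VEGFA and NDRG1), a share near the 56.7% of all genes (28.6% lower and 28.1% higher). The median of the 8 was -0.041 on the log2 scale, beside 0.018 for all genes. Whether the arms differed was not tested.

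The control libraries differed from each other in much of this set. In SC over DMSO, 9 of the 10 genes passed the filter, and 6 had intervals over 1 (ADM, NDRG1, CA9, ANKRD37, BNIP3 and P4HA1) and 2 under 1 (HIF1A and VEGFA), against 56.3% of all genes with an interval that left out 1 (28.3% over 1 and 28% under 1). None of the 9 was 2-fold lower, as 6.64% of all genes were. With total counts alone, the intervals of CA9, BNIP3 and P4HA1 included 1 and 3 remained over 1. ADM and CA9 were at least 2-fold higher in SC, as were 5.3% of all 13303 genes. CA9 passed the filter only through SC, with 11 reads against 2 (fold change: 4.0, interval 1.03 to 43.6), and without it ADM was the 1 such gene of 8. Transfection and any other difference between the arms cannot be told apart here. Of 16 keratinocyte markers, 13 were highest in PD-0332991, 2 in CDK4-6-KD and 1, SFN, in SC. Among the 13, TP63 (1 read in PD-0332991, DMSO and CDK4-6-KD) and DSG3 (2 reads in PD-0332991 and DMSO) were placed by library scaling alone. Of the 16 markers, 9 had at least 10 reads in SC, 4 in DMSO, 11 in PD-0332991 and 8 in CDK4-6-KD. Their summed level was 373 CPM in SC, 210.2 in DMSO, 234 in PD-0332991 and 212 in CDK4-6-KD, but SFN alone gave 305 of the 373 CPM in SC. Without SFN it was 67.5 CPM in SC, 76.6 in DMSO, 172 in PD-0332991 and 110.3 in CDK4-6-KD. KRT10 alone gave most of this in SC (48.0 CPM), DMSO (66.3) and CDK4-6-KD (87.1), and 77.0 CPM in PD-0332991. KRT14, a keratin of the basal layer, had 31 reads in SC, 9 in DMSO, 249 in PD-0332991 and 74 in CDK4-6-KD. The defining marker TP63 had 0 or 1 read in each. The summed level of 7 mesenchymal markers was lowest in SC, at 8.88 CPM against 49.7 in DMSO, 80.3 in PD-0332991 and 22.9 in CDK4-6-KD. The part of either list in these differences was not tested. Against DMSO instead of SC, 1 gene, HIF1A, was at least 2-fold lower in CDK4-6-KD (8.16% of all genes were) and no gene of the set was 2-fold higher (8.04%). HIF1A, ADM and NDRG1 had intervals under 1 and VEGFA and EGLN1 intervals over 1 against both controls. For CDK4-6-KD over DMSO these 5 were the members whose interval left out 1, of 9 past the filter, against 59.4% of all genes (30.5% under 1 and 28.9% over 1). The share of all genes with intervals on the same side of 1 against both controls was not computed. Both ratios use the same CDK4-6-KD library. For PD-0332991 over SC, ADM and ANKRD37 were at least 2-fold lower (8.17% of all genes were), 5 of 9 genes had intervals under 1 (32.5% of all genes) and VEGFA an interval over 1 (30.5% of all genes), where 63% of all genes left out 1.

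**Figure D3:**
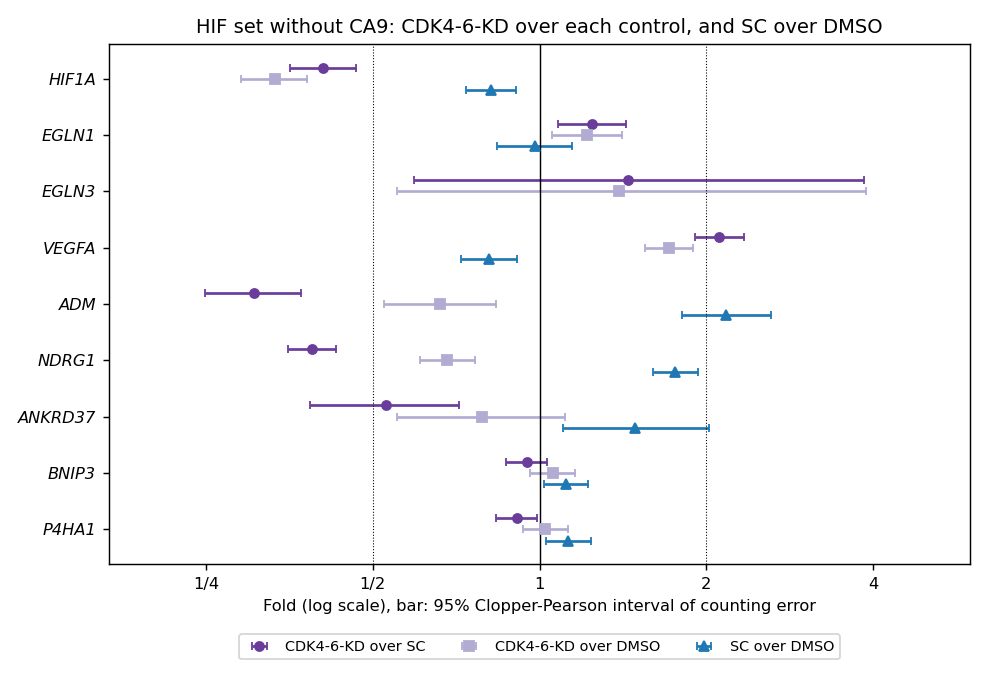
Fold change (x axis, log scale) with 95% Clopper-Pearson intervals for CDK4-6-KD over SC (dark circles), CDK4-6-KD over DMSO (pale squares) and SC over DMSO (triangles), for the set without CA9. ADM and NDRG1 were higher in SC than in DMSO (2.17-fold and 1.76-fold). Their CDK4-6-KD fold changes were therefore nearer 1 against DMSO, a matter of arithmetic. EGLN3 in SC over DMSO was under the read filter.

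The proteins that build, modify and destroy HIF were examined as 18 genes, of which 17 passed the filter. None was 2-fold lower or higher in either arm. Of all genes, 7.62% were lower and 9.19% higher in CDK4-6-KD over SC, and 7.06% and 7.49% in PD-0332991 over DMSO. In CDK4-6-KD over DMSO, 1 of the 17, EPAS1, was 2-fold lower (fold change: 0.395, interval 0.350 to 0.445), as were 8.16% of all genes. In CDK4-6-KD over SC 4 of the 17 intervals lay under 1 (31.9% of all genes) and 9 over 1 (30% of all genes), with a median log2 fold change of 0.16. In PD-0332991 over DMSO 5 lay under 1 (28.6% of all genes) and 4 over 1 (28.1% of all genes), with a median of -0.035. HIF1AN, which hydroxylates an asparagine of HIF alpha and blunts its activity, was at 50.1 CPM in DMSO, 53.3 in PD-0332991, 85.5 in SC and 47.6 in CDK4-6-KD, so that, like ADM, it was highest in SC. EPAS1, the other HIF alpha subunit, differed mainly by arm, at 91.1 CPM in DMSO and 88.8 in PD-0332991 against 46.9 in SC and 36.0 in CDK4-6-KD. Its fold change was 0.767 (interval 0.671 to 0.875) in CDK4-6-KD over SC and 0.976 (interval 0.885 to 1.08) in PD-0332991 over DMSO. ARNT, the partner of both alpha subunits, ran from 18.5 to 20.4 CPM, and all its intervals overlapped. EGLN2, a further hydroxylase, was 1.45-fold higher in CDK4-6-KD than in SC (interval 1.21 to 1.73) but lower after PD-0332991 (fold change: 0.650, interval 0.516 to 0.813). SIAH1, a ubiquitin ligase, was higher in CDK4-6-KD than in SC (fold change: 1.90, interval 1.65 to 2.18) and less so against DMSO (fold change: 1.16). HIF3A had at most 5 reads.

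A wider list of 51 HIF targets outside glycolysis, 50 of them in the files, had genes in both directions, in shares near those of all genes. Of the 44 that passed the filter in CDK4-6-KD over SC, 4 were 2-fold lower or beyond (7.62% of all genes were) and 4 were 2-fold higher or beyond (9.19% of all genes), with a median log2 fold change of -0.13. Among those lower were IGFBP1 (a binding protein of insulin-like growth factors), BHLHE40 (a transcriptional repressor) and ADORA2B (an adenosine receptor, named after its values were seen, with 35 reads against 87). Those higher were VLDLR, ANGPTL4, TMEM45A and CITED2. ANGPTL4 rested on a low SC count, 7 reads beside 77 in DMSO, 93 in PD-0332991 and 32 in CDK4-6-KD. Set against DMSO instead, ANGPTL4 in CDK4-6-KD was lower, at 0.339 (interval 0.215 to 0.513). The CITED2 interval then included 1 (0.908 to 1.86), while those of VLDLR and TMEM45A stayed over 1. CITED2 was lower in SC than in DMSO (fold change: 0.488). It was also lower in PD-0332991 than in DMSO, with 23 reads against 53 (fold change: 0.441, interval 0.255 to 0.723). IGFBP1 had 151 CPM in DMSO, 470.3 in PD-0332991, 405 in SC and 12.3 in CDK4-6-KD. VLDLR, a lipoprotein receptor, was highest in CDK4-6-KD as VEGFA was, with 13 reads in DMSO, 23 in PD-0332991, 15 in SC and 152 in CDK4-6-KD (fold change in CDK4-6-KD over SC: 9.31, interval 5.63 to 17.5). After PD-0332991, 3 of 45 genes were at least 2-fold lower (7.06% of all genes) and 4 at least 2-fold higher (7.49% of all genes), with a median of 0.21. DDIT4, an inhibitor of mTORC1 signalling, was lowest in DMSO, at 30.1 CPM against 86.4 in PD-0332991, 83.1 in SC and 140 in CDK4-6-KD. EPO, the erythropoietin gene, was highest in DMSO, with 107 reads against 50, 56 and 51.

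The glycolysis targets of HIF, counted for comparison, were mostly lower in CDK4-6-KD. Of 21 such genes that passed the filter, 8 were 2-fold lower than in SC or beyond (7.62% of all genes were) and 0 were 2-fold higher (9.19% of all genes), with a median log2 fold change of -0.90. After PD-0332991 their median was -0.27. In SC over DMSO, 15 of 22 glycolysis intervals lay over 1 (28.3% of all genes) and 2 under 1 (28% of all genes), with a median of 0.40. In CDK4-6-KD over DMSO, 6 of 22 were 2-fold lower (8.16% of all genes) and 0 were 2-fold higher (8.04% of all genes), with a median of -0.54. No test of the difference between the lists was made. In CDK4-6-KD over SC, 2 of the 10 genes of the set (VEGFA and EGLN1) had intervals over 1, beside 30% of all genes. Among the 21 glycolysis genes no interval lay over 1, and 19 lay under 1 (31.9% of all genes). Over DMSO, 2 of 22 glycolysis intervals lay over 1 (28.9% of all genes) and 16 under 1 (30.5% of all genes).

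**Figure D4:**
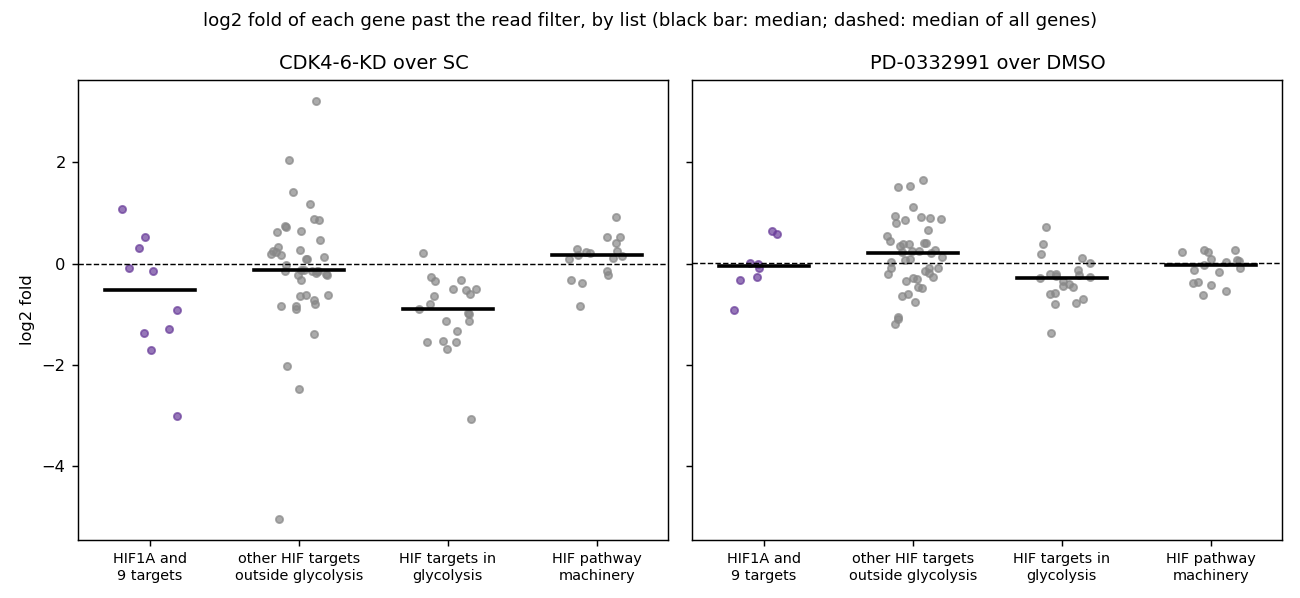
log2 fold change (y axis) of every gene past the read filter, as 1 point each, by list (x axis), for CDK4-6-KD over SC (left) and PD-0332991 over DMSO (right). Black bars are list medians and the dashed line the median of all genes. On the left the glycolysis targets lay mostly below 0 (median -0.90), whereas the other HIF targets outside glycolysis lay on both sides (median -0.13).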

How the data were processed

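For 4 QuantSeq libraries of HepG2, 1 per condition, the authors deposited raw counts of reads by gene symbol. The submitters' processing notes name Bowtie2, edgeR and hg19, without versions. The counting program, its annotation and its use of strand are not given in the sources used here. Each table held 25737 entries, of which repeated symbols (286) were summed to 24462 genes. Library sizes were corrected with TMM factors (edgeR 4.0.16, R 4.3.3). A fold change is the ratio of counts, each raised by a pseudocount of 0.5 reads in proportion to library size. Genes under 10 reads in both libraries compared were left out, and a gene was counted as higher or lower at 2-fold. Intervals were computed with scipy 1.17.1. The scripts were tested on simulated counts that held counting error alone, with no variation between libraries or from PCR. With 1 library per condition, edgeR's test could not be fitted. Gene positions come from GENCODE 29 (GRCh38), whose build differs from that of the counts, and promoters from RefSeq (GRCh38.p14). The members and lists were chosen with earlier results of these data known. Genes named were the members, CDK4 and CDK6, machinery genes with at least 50 reads in a library, up to 4 genes per direction of each other list by the interval end nearest 1, and the 5 nearest profiles. Alternatives were other size factors (DESeq2 1.42.0 median-of-ratios, upper quartile, total counts), a pseudocount of 5 reads, filters of 50 reads or none, other thresholds, keeping just the entry with most reads for a repeated symbol, and the control of the other arm. A gene of the wider target list that the naming rule selects is not reported here.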

Additional observations from a re-analysis of the deposited data

Results flagged for a closer look

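NDRG1 stood on opposite sides of 1 in the 2 arms, with a fold change of 0.388 in CDK4-6-KD over SC and 1.57 in PD-0332991 over DMSO. Each arm had 1 library per condition, so this difference was not tested. SC was 1.76-fold above DMSO for NDRG1, and with the controls exchanged PD-0332991 was at 0.896 of SC.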

How the results depend on the processing

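No paired analysis was possible because the labels give no replicate numbers and each condition had 1 library, and for the same reason no replicate could be left out. All 30 fold changes of the 10 genes stayed within their intervals under each of DESeq2 size factors, upper-quartile factors, total counts, a pseudocount of 5 reads and the most counted entry. Total counts moved the CDK4-6-KD over SC medians (log2) to -0.42 for the set, -0.023 for the other targets, 0.27 for the machinery and -0.80 for glycolysis, with the median of all genes shifted by 0.10. The control of the other arm mattered most. With DMSO, CDK4-6-KD had 1 gene of the set 2-fold lower and 0 higher. Its medians were 0.034 for the set (9 genes, since CA9 was under the filter) and 0.030 for the other targets, both changed in sign but near 0. For glycolysis the median was -0.54. P4HA1 was at 1.02 over DMSO, with an interval that included 1 (0.932 to 1.12). With SC, PD-0332991 had 2 genes of the set 2-fold lower (ADM and ANKRD37), medians of -0.16 for the set, 0.069 for the other targets and -0.64 for glycolysis, and NDRG1 reversed at 0.896. The cause was not tested. In alternatives chosen after seeing the data, the set's median in CDK4-6-KD was -0.14 over SC and 0.034 over DMSO without CA9, and -0.53 and -0.16 without CA9 and EGLN3, so its sign over DMSO depends on which genes are counted. Without CA9, or without both, the median of PD-0332991 over SC was -0.15 and 1 gene of the set was 2-fold higher in SC over DMSO. Total counts alone left 3 of 6 intervals of the set over 1 in SC over DMSO. The number of genes called, lower and higher, was 1037 and 1252 in CDK4-6-KD over SC, 949 and 1007 in PD-0332991 over DMSO, and 883 and 705 in SC over DMSO. Without a filter it was 2060 and 3005, 2036 and 2814, and 2372 and 1909, with 1 gene of the set, CA9, higher after PD-0332991. With a filter of 50 reads it was 676 and 632 in CDK4-6-KD, 406 higher after PD-0332991, and 465 and 311 in SC over DMSO, with 1 gene of the set higher there. At 1.5-fold it was 2368 and 2637, 2024 and 2259, and 2092 and 1783, with 1 gene of the set lower and 1 higher after PD-0332991. With the whole interval past 2-fold it was 438 and 454, 455 and 226, and 265 and 165, with 0 genes of the set higher in CDK4-6-KD or in SC over DMSO. At 1 to 14 reads, CA9 and EGLN3 are limited by depth.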

Other observations

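The 5 genes whose level profiles over the 4 libraries lay nearest the median profile of the 7 members that averaged 100 reads or more were KRIT1, FLII, KIF1B, PCM1 and ASMT, among 9222 genes searched. Their distances ran from 0.0462 to 0.0567 on the centred log2 scale. That median profile was nearly flat (-0.06 in DMSO, -0.04 in PD-0332991, 0.18 in SC and 0.01 in CDK4-6-KD), so it describes none of the members that moved. With single members as the reference, a choice made after the values were seen, HIF1A was nearest to CANT1 (distance: 0.0833) and ETV4 (distance: 0.0877), and VEGFA to DTNB (distance: 0.0682) and CREM (distance: 0.0824). With 4 libraries, such likeness is a description only.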
